A study of Sus scrofa with 8 samples.

Results

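Oxidative phosphorylation is carried out by 5 protein complexes of the inner mitochondrial membrane. Complex I (NADH dehydrogenase) and complex II (succinate dehydrogenase) pass electrons to ubiquinone, complex III (cytochrome bc1) hands them to cytochrome c, and complex IV (cytochrome c oxidase) passes them to oxygen. Complexes I, III and IV pump protons, and complex V (ATP synthase) uses the proton gradient to make ATP. In hepatocytes the chain also takes up the electrons released by the oxidation of fatty acids, the fuel that accumulates as droplets in a steatotic liver. Most subunits are encoded in the nucleus and imported, and a few are encoded in mitochondrial DNA.

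Members were taken by symbol from the 18103 genes and transcripts of the expression table: NDUFA, NDUFB, NDUFC, NDUFS and NDUFV genes, SDHA to SDHD, UQCR genes, CYC1, COX4 to COX8 genes and ATP5 genes. A total of 69 genes matched, with 36 in complex I, 4 in complex II, 2 in complex III, 10 in complex IV and 15 in complex V. NDUFA4 and its paralogue NDUFA4L2 were placed in complex IV, of which NDUFA4 is now regarded as a subunit. The other 2 members, ATP5S and ATP5SL, are related to complex V by name but are no subunits of it. All 69 had a RefSeq position in the pig assembly Sscrofa11.1. Of these members, 68 reached 0.3 FPKM in at least 4 of the 8 libraries and were tested, and COX8H did not. FPKM counts fragments relative to transcript length and to the mapped reads of the library, so levels can be set side by side between genes.

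Hepatic RNA of male Large White x Landrace pigs was sequenced in 8 libraries, each a pool of equal RNA amounts from 2 pigs. The 4 pools of the initial state (labelled Control, healthy) came from animals of 4 months on standard feed. The 4 pools of steatosis came, per the study's methods, from the same animals at 6 months, after 2 months on a steatotic diet rich in cholesterol, cholate, fructose and saturated fat and poor in methionine and choline. The first livers were sampled by biopsy and the last after euthanasia, so diet, 2 months of age and the way of sampling cannot be told apart, and a p value reflects the spread between pools of 2 pigs.

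The libraries were those of liver, with summed FPKM of 11 rows of hepatocyte markers between 58254 and 98609, the highest in initial pool 4. The sums overlapped, at 76923 ± 14659 initially and 62348 ± 5053 in steatosis (SD, n = 4). Of the 11 rows, 8 had negative changes, and the median log2 fold change was -0.27. FGA and FGB were called lower and 2 rows of TF higher, against 2.28% and 26.7% of all tested genes. Skeletal muscle transcripts stood out in 1 library. The 9 muscle markers summed to 3045 FPKM in initial pool 1, against 1.24 to 23.3 in the other initial pools and 0.43 to 1.38 in steatosis. Macrophage markers summed to 405 to 463 FPKM in the initial state and 767 to 807 in steatosis. Of these markers, 8 of 10 were called higher, against 26.7% of all tested genes, and 0 lower. Endothelial markers were called higher in 2 of 5 cases, PECAM1 and KDR, against 26.7% of all tested genes, with sums of 40.6 to 49.6 and 56 to 75.2 FPKM. Without initial pool 1, KDR and the TF row of lower level were not called (limma adjusted p = 0.0656 and 0.0703). None of 4 cholangiocyte markers was called, although all 4 had positive changes. Their sum was 19.9 FPKM in initial pool 1, 4.06 to 7.33 in the other initial pools and 7.57 to 18.6 in steatosis. Without initial pool 1, EPCAM was called (log2 fold change 1.32, limma adjusted p = 0.0142), and SOX9 was called when pools of the same number were treated as pairs (1.18, limma adjusted p = 0.024). The part of these differences in the results that follow was not tested. In whole liver, fewer cells of a type and less RNA per cell cannot be told apart.

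Subunit transcripts were abundant and close to each other between the groups. The summed FPKM of the 69 members was 5034, 5404, 5266 and 5643 in initial pools 1 to 4 and 5865, 5557, 5566 and 5369 in the steatosis pools. The groups overlapped, with means of 5337 ± 255 and 5589 ± 205 FPKM (SD, n = 4), and the members made up between 0.975% and 1.1% of all FPKM in a library.

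Within each complex the sums overlapped as well. Complex I summed to 1538 ± 64.8 FPKM in the initial state and 1641 ± 59.9 in steatosis (SD, n = 4), and complex II to 365 ± 27.3 and 376 ± 6.5. The 2 genes of complex III gave 262 ± 14.8 and 283 ± 19. Complex IV gave 1236 ± 45.4 and 1298 ± 82.2, and complex V 1914 ± 114 and 1967 ± 72.7. In complexes I, II, IV and V the lowest of the 8 pools was initial pool 1, the library with the muscle transcripts.

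**Figure D1:**
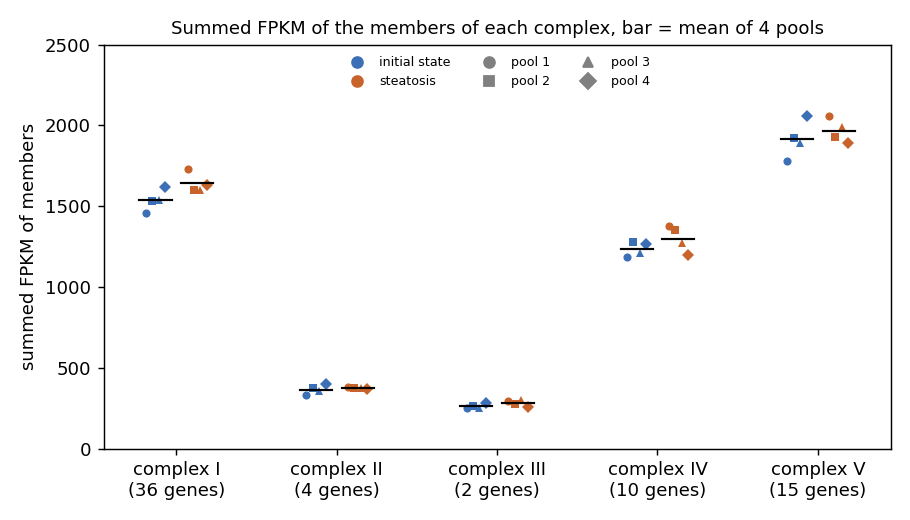
Summed FPKM (linear axis) of the members of each complex in each of the 8 pools, with blue for the initial state, orange for steatosis, symbols for pool numbers and bars for the mean of 4 pools. The pools of both groups overlap in every complex, with complex V between 1781 and 2058 FPKM and complex I between 1460 and 1729 FPKM.

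Single members spanned a wide range of levels. The mean over the 8 pools ran from 0.445 FPKM for NDUFA4L2 to 273 FPKM for NDUFA4, with ATP5E also at 273 FPKM and a median of 56 FPKM over the 68 tested members. Complex I was the least abundant per gene, with a median of 38.8 FPKM and a range of 8.09 (NDUFA5) to 125 (NDUFB9). The medians were 80.3 FPKM in complex II, 136 in complex III, 138 in complex IV and 126 in complex V. Pools of a group differed little, since the median coefficient of variation was 8.5% in the initial state and 6.39% in steatosis.

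With limma on log2(FPKM + 0.1), 6 of 68 members (8.82%) were higher in steatosis at an adjusted p under 0.05, against 26.7% of all 13175 genes tested. None was lower, against 2.28% of all genes, and 3 members had an unadjusted p under 0.05 with a negative change. No member passed the limits of the study, an adjusted p under 0.01 with a log2 fold change beyond 1, which 6.35% of all genes passed. The changes ran from -0.33 to 0.44 on the log2 scale, and for 67 of the 68 the 95% interval lay within 1 log2 unit on either side, with NDUFA4L2, the gene of lowest level, as the exception (-0.81 to 1.40). The groups did not overlap in 8 members higher in steatosis (11.8%, against 29.6% of all genes) and in 1 lower (1.47%, against 2.53%).

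The direction of these small changes depended on how libraries were scaled. With FPKM as deposited, the median log2 fold change was 0.09 over the members and 0.25 over all tested genes, so that 57 of 68 members lay below the median gene. When each library was divided by the median, over genes, of its ratio to the mean of all libraries (median-ratio scaling), the median of all genes became -0.01 and that of the members -0.18. On that scale 0 members were higher, against 11.6% of all genes, and 13 members (19.1%) were lower, against 9.79%. Among these 13 were NDUFA5, NDUFA9, NDUFB9, NDUFB11, NDUFS1, NDUFV3, SDHB, COX7A1, NDUFA4, ATP5A1, ATP5B and ATP5S. The divisor of initial pool 4, the pool with the highest sum of hepatocyte markers, was the smallest of the 8, at 0.7999. Without initial pool 1, 4 members were higher and 1 was lower on the deposited scale, against 23.5% and 2.13% of all genes. Without initial pool 3 or without steatosis pool 4 only 3 were higher, where 24.6% and 17.6% of all genes were higher.

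**Figure D2:**
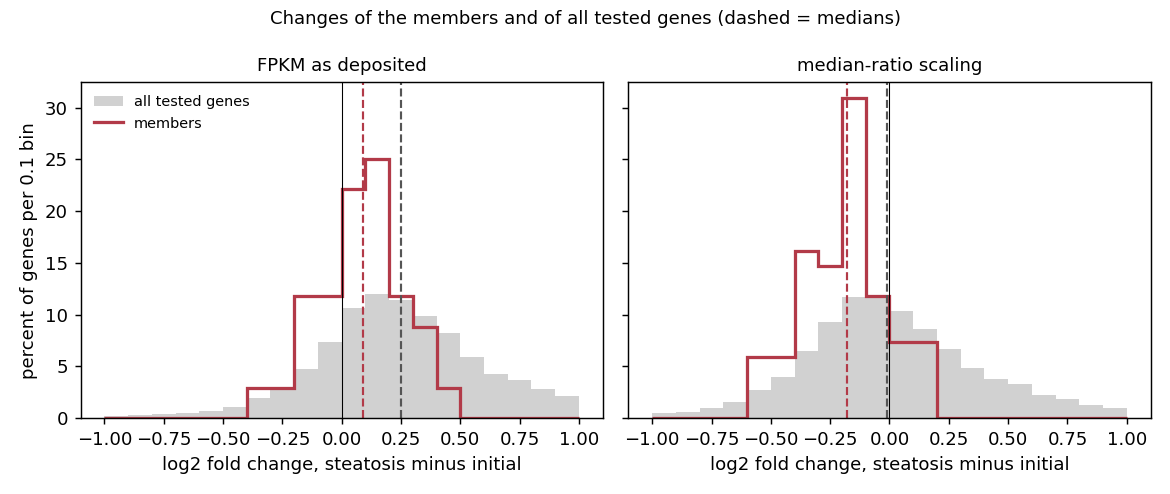
Histogram of log2 fold changes (steatosis minus initial state, bins of 0.1) as percent of genes, in grey for all tested genes and in red for the members, with FPKM as deposited at left and after median-ratio scaling at right, where dashed lines mark medians. The median of the members lies to the left of that of all genes in both panels, at 0.09 against 0.25 and at -0.18 against -0.01. The members lie within the spread of all genes.

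**Figure D3:**
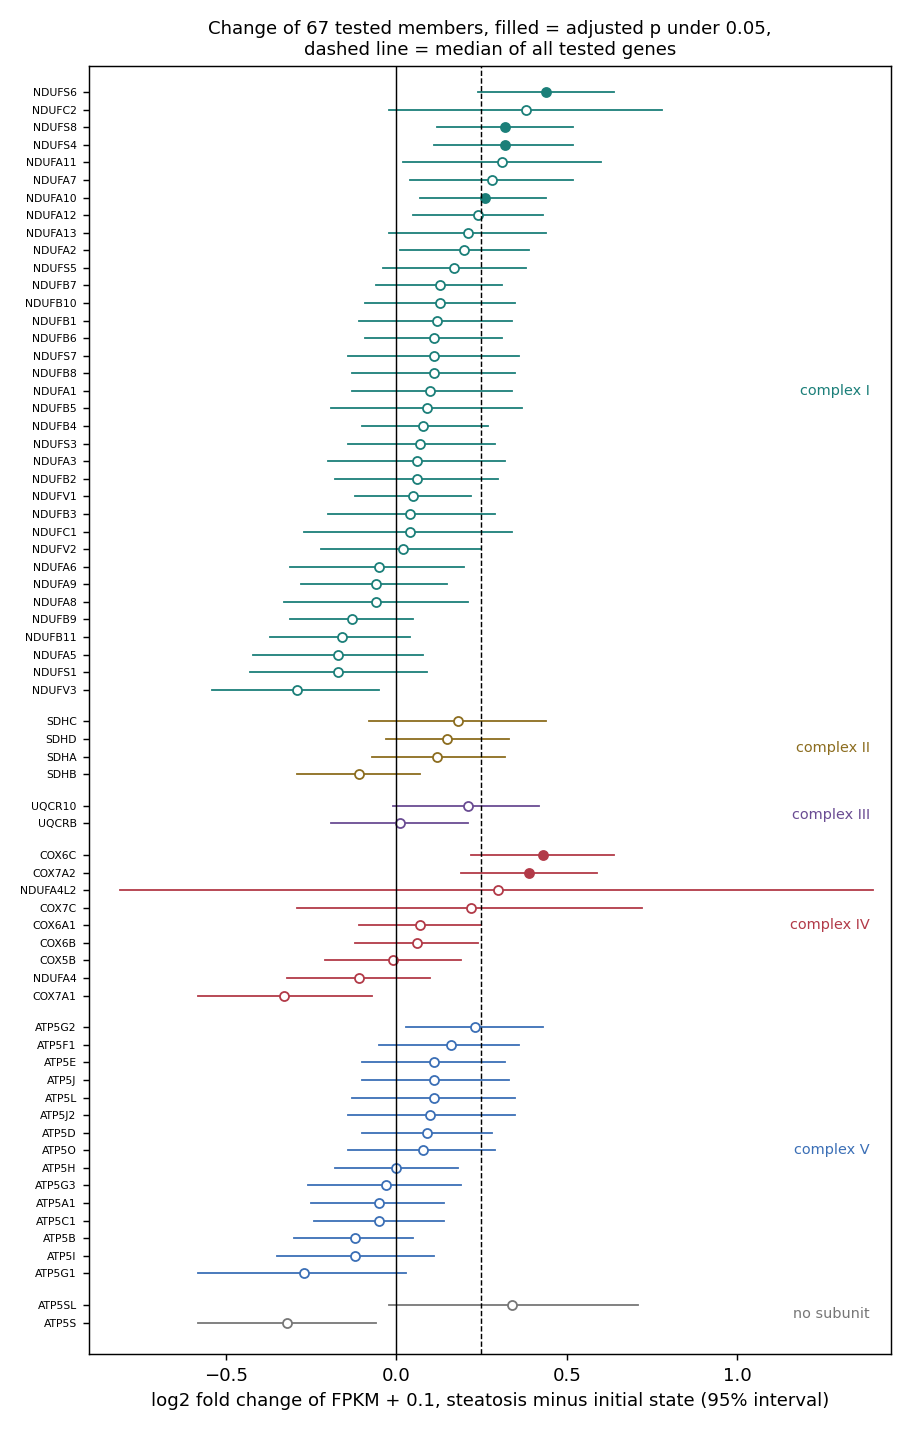
The log2 fold change of 67 of the 68 tested members with its 95% interval, ordered by complex, where filled points passed an adjusted p under 0.05. The solid line marks 0 and the dashed line the median of all tested genes, 0.25. The 6 filled points are 4 genes of complex I and 2 of complex IV, and the intervals of most other members cross 0.

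Complex I has 36 of the 68 tested members and held 4 of the 6 higher ones, where 26.7% of all tested genes were higher. Its 36 genes had a median log2 fold change of 0.10, with 27 above 0 and 9 below. The complex has 7 nuclear-encoded core subunits, which carry the flavin and iron-sulfur centres, and accessory subunits that stabilise it. The 7 core genes had a median of 0.05 and 1 higher call, and the 29 accessory genes a median of 0.11 and 3 higher calls.

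NDUFS6, a zinc-binding accessory subunit that joins late in assembly (chromosome 16, 78993909 to 79000001), showed the largest rise among all members. It was at 20.33, 22.9, 24.52 and 21.92 FPKM in initial pools 1 to 4 and at 32.36, 29, 30.58 and 29.62 FPKM in steatosis. All 4 steatosis pools were above all initial pools, by 1.36-fold (log2 fold change 0.44, SE 0.09, limma adjusted p = 0.00596). After median-ratio scaling the log2 fold change was 0.17 (limma adjusted p = 0.22).

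NDUFS4, an accessory subunit of the NADH-oxidising part whose loss causes Leigh syndrome, lies on the same chromosome (32874418 to 32985638). Its levels were 55.33, 52.45, 55.81 and 65.33 FPKM initially and 66.59, 73.81, 68.99 and 75.14 FPKM in steatosis. The groups were separated, if only just, since steatosis pool 1 was close to initial pool 4 (log2 fold change 0.32, SE 0.09, limma adjusted p = 0.0305). This call was lost without each of initial pools 1, 2 and 3 and steatosis pools 2, 3 and 4, with limma adjusted p values between 0.0593 and 0.0904. It was also lost without a mean-variance trend, with a common upper quartile and with median-ratio scaling. In the last of these the change was 0.04 (limma adjusted p = 0.835).

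NDUFS8, a core subunit with iron-sulfur clusters on the path to ubiquinone (chromosome 2, 4863295 to 4867392), stood at 38.23, 38.5, 34.59 and 33.59 FPKM initially and 48.87, 43.66, 42.2 and 46.41 FPKM in steatosis. The groups did not overlap (log2 fold change 0.32, SE 0.09, limma adjusted p = 0.0236), and the call was lost without initial pool 3, steatosis pool 1 or steatosis pool 4. With median-ratio scaling the change of NDUFS8 was 0.05 (limma adjusted p = 0.713). NDUFV1, the subunit that binds NADH, lies on the same chromosome (4958508 to 4964211) and read 27.1 ± 1.23 and 28.1 ± 0.316 FPKM (SD, n = 4), which differ by 0.05 on the log2 scale.

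NDUFA10, an accessory subunit related to nucleoside kinases (chromosome 15, 138999174 to 139031892), was at 30.79, 34.34, 29.46 and 33.93 FPKM initially and at 37.15, 38.68, 38.5 and 38.94 FPKM in steatosis. The groups did not overlap, but the difference was small and close to the limit (log2 fold change 0.26, SE 0.08, limma adjusted p = 0.0443). When pools of the same number were treated as pairs (a block), the limma adjusted p was 0.0737, and after median-ratio scaling the change was -0.02. The call was also lost with FPKM brought to a common sum, without a mean-variance trend and when any library but initial pool 2 or 4 was left out.

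Of the other core subunits, NDUFS1, the largest iron-sulfur protein, had 24.6 ± 3.28 FPKM initially and 21.8 ± 2.1 in steatosis (SD, n = 4). NDUFS7, near the ubiquinone site, had a log2 fold change of 0.11, and NDUFS3 and NDUFV2 of 0.07 and 0.02. In each of these 4 the groups overlapped and no call was made with FPKM as deposited. NDUFS1 was among the genes lower after median-ratio scaling, with a change of -0.44.

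At the other end, NDUFV3, an accessory subunit beside the flavin site (chromosome 13, 206111337 to 206123987), had the lowest change in complex I. It was at 54.26, 59.13, 60.36 and 57.37 FPKM initially and at 57.25, 40.42, 46.46 and 45.7 FPKM in steatosis. Steatosis pool 1 lay within the initial range while the other 3 lay below it (log2 fold change -0.29, SE 0.11, limma adjusted p = 0.071). Without steatosis pool 1 the change was -0.39 and the limma adjusted p 0.0209, and with median-ratio scaling these were -0.57 and 0.0102.

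NDUFB9, an accessory subunit of the membrane arm, was the most abundant gene of complex I. Its values were 127.5, 121.8, 130.9 and 142 FPKM initially and 113.9, 119.2, 117.4 and 126.2 FPKM in steatosis, with overlap (log2 fold change -0.13, limma adjusted p = 0.255). NDUFC2, a membrane-arm gene named after its values were seen, had the widest spread between pools of the complex, a coefficient of variation of 21.8%. It ran from 45.52 FPKM in initial pool 1 to 100.7 FPKM in steatosis pool 4, and its log2 fold change of 0.38 did not pass (limma adjusted p = 0.135) and was 0.23 without initial pool 1. NDUFA12 was separated between the groups, at 58.8 ± 2.97 and 69.7 ± 4.9 FPKM (SD, n = 4), with a limma adjusted p of 0.0557.

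**Figure D4:**
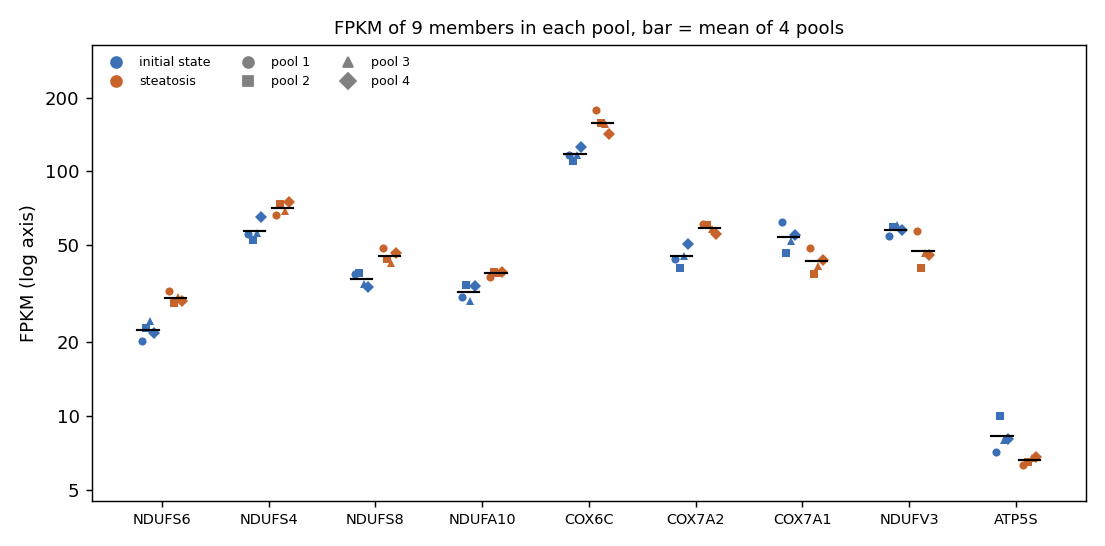
FPKM (log axis) of 9 members in each pool, with blue for the initial state, orange for steatosis and bars for the mean of 4 pools. For NDUFS6, NDUFS4, NDUFS8, NDUFA10, COX6C and COX7A2 every orange point lies above every blue point, for COX7A1 and NDUFV3 the groups overlap, and for ATP5S every orange point lies below.

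Complex II, which is also an enzyme of the citric acid cycle and is built from nuclear genes alone, was not called in any of its 4 genes. Of all tested genes, 26.7% were higher and 2.28% lower. SDHB, its iron-sulfur subunit and most abundant gene, was at 151.4, 160.2, 159.3 and 174.7 FPKM initially and 150.6, 148.5, 153.6 and 144.7 FPKM in steatosis. Of the steatosis pools, pool 3 lay within the initial range and the others lay below it (log2 fold change -0.11, limma adjusted p = 0.314), and after median-ratio scaling the change was -0.38 (limma adjusted p = 0.0362). SDHC, a membrane anchor, had the largest positive change, 0.18, with 86 ± 12.5 and 97 ± 8.53 FPKM (SD, n = 4), and 0.11 without initial pool 1. SDHD, the other anchor, was separated between groups at 51.5 ± 2.93 and 57 ± 1.9 FPKM, and SDHA, the flavoprotein, overlapped at 66.1 ± 4.21 and 72.1 ± 4.67 FPKM. Neither passed, with limma adjusted p values of 0.182 and 0.301.

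For complex III the symbols gave UQCR10 and UQCRB, both small subunits. UQCR10 was at 125.2, 133.9, 141.8 and 148.4 FPKM initially and 164.6, 154.7, 174.2 and 141.1 FPKM in steatosis. Steatosis pool 4 fell within the initial range and the other 3 lay above it (log2 fold change 0.21, limma adjusted p = 0.13). UQCRB, which contributes to the ubiquinone site, was level, at 124 ± 10.5 and 125 ± 5.45 FPKM (SD, n = 4), with a 95% interval of the log2 fold change from -0.19 to 0.21.

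A further 7 genes of complex III carry LOC symbols in the table and were found by their description after values were seen. UQCRC1 and UQCRC2, the core proteins, had log2 fold changes of -0.01 and 0.02, and CYC1, the cytochrome c1 gene, of 0.06. UQCRH and UQCR11 were separated between groups, at 75.5 ± 3.55 and 88.5 ± 3.67 FPKM and at 42.8 ± 2.77 and 51.4 ± 3.95 FPKM (SD, n = 4). Their limma adjusted p values were 0.0518 and 0.0531, so none of the 7 was called, against 26.7% higher and 2.28% lower of all genes. UQCRQ had the lowest change of the 7, -0.20.

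Of the 9 tested members of complex IV, 2 were called higher and 0 lower, against 26.7% and 2.28% of all genes. The symbols take in nuclear genes only, so subunits encoded in mitochondrial DNA were not among them. COX6C (chromosome 4, 37074619 to 37089364) was at 116.4, 109.9, 117.2 and 126.3 FPKM initially and at 178.2, 157.8, 156.1 and 141.9 FPKM in steatosis. Every steatosis pool was above every initial pool (1.35-fold, log2 fold change 0.43, SE 0.09, limma adjusted p = 0.00815). After median-ratio scaling the change was 0.16 (limma adjusted p = 0.399).

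The paralogues COX7A1 and COX7A2, which occupy the same place in the complex, had changes of opposite sign. COX7A2, the form of liver and most tissues (chromosome 1, 90696746 to 90703407), was at 43.88, 40.46, 44.98 and 50.67 FPKM initially and 61.1, 60.6, 58.08 and 55.72 FPKM in steatosis. The groups did not overlap (1.31-fold, log2 fold change 0.39, SE 0.09, limma adjusted p = 0.0111). With median-ratio scaling the change of COX7A2 was 0.12 (limma adjusted p = 0.54). COX7A1, the heart and muscle form (chromosome 6, 45519225 to 45520721), was at 61.96, 46.2, 52.16 and 55.1 FPKM initially and 48.73, 38.14, 41.23 and 43.34 FPKM in steatosis.

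COX7A1 was lower in steatosis within each pool number, but the groups overlapped in steatosis pool 1 (log2 fold change -0.33, SE 0.11, limma adjusted p = 0.056). It was the lowest change of all members, and it passed in the blocked fit (limma adjusted p = 0.0278), without initial pool 2 (0.0311) and without steatosis pool 1 (0.044). Its highest value was in initial pool 1, where muscle markers were high, and without that library the change was -0.26 (limma adjusted p = 0.119). After median-ratio scaling the change was -0.60 (limma adjusted p = 0.0163).

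Set against each other within a library, which no scaling between libraries alters, the COX7A forms separated the groups. The ratio of COX7A2 to COX7A1 was 0.708, 0.876, 0.862 and 0.92 in initial pools 1 to 4 and 1.25, 1.59, 1.41 and 1.29 in the steatosis pools. COX7A1 was the more abundant form in all initial pools and COX7A2 in all steatosis pools, initial pool 1 being the lowest value. The two-sided exact permutation p of the difference in means was 0.0286, the smallest that 4 pools against 4 can give, and 0.0571 after adjustment over the 8 paralogue ratios computed, all of which were chosen after values were seen. COX7A2L, a paralogue that links complexes III and IV into supercomplexes and carries a LOC symbol in the table, was at 40.32, 37.74, 41.9 and 41.4 FPKM initially and 62.2, 58.04, 67.57 and 61.19 FPKM in steatosis. Its log2 fold change of 0.62 (SE 0.08, limma adjusted p = 0.000702) was larger than that of any member, and it was still called after median-ratio scaling (0.35, limma adjusted p = 0.0454). Relative to COX7A1 it was at 0.756 ± 0.0754 initially and 1.46 ± 0.155 in steatosis (SD, n = 4, exact permutation p = 0.0286, adjusted 0.0571). Both ratios have COX7A1 as the denominator, so they are not separate results, and the adjustment does not take this into account.

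**Figure D5:**
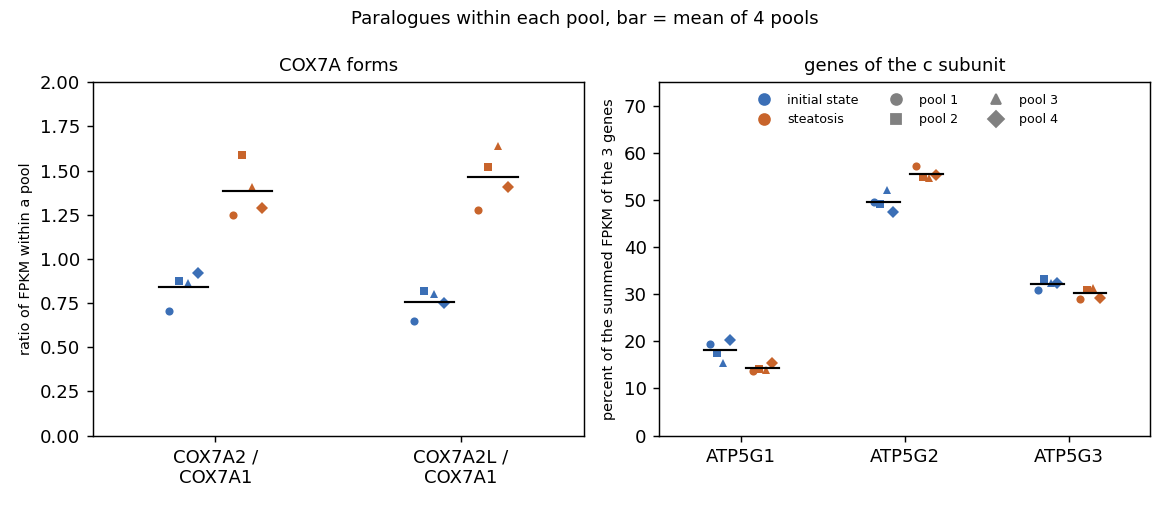
Left, the ratio of FPKM of COX7A2 and of COX7A2L to COX7A1 within each pool, and right, the percent of the summed FPKM of the 3 c subunit genes that each made up, with blue for the initial state, orange for steatosis and bars for the mean of 4 pools. Both COX7A ratios are below 1 in all initial pools and above 1 in all steatosis pools, and ATP5G2 makes up a larger percent in every steatosis pool than in any initial pool.

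The forms of subunit 6A gave no such separation. COX6A1, the liver form of subunit 6A, was at 247 ± 11.3 and 259 ± 13.5 FPKM (SD, n = 4), and COX6A2, the muscle form, under a LOC symbol, at 10 ± 1.98 and 10.2 ± 1.5 FPKM. The ratio of COX6A2 to COX6A1 was 0.0409 ± 0.00964 and 0.0392 ± 0.00477 (exact permutation p = 0.8). COX8H, the muscle form of subunit 8 (chromosome 2, 69199 to 70730), was at 21.21 FPKM in initial pool 1 and listed at 0 in the other 7 pools (exact permutation p = 1), while the common form COX8A, under a LOC symbol, was at 103 ± 6.97 and 119 ± 11.4 FPKM. Initial pool 1 was the pool with the muscle markers ACTA1 at 1439 FPKM and CKM at 557.1 FPKM.

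NDUFA4, the most abundant member, was at 266, 292.8, 269.4 and 305.8 FPKM initially and 293.7, 265, 247.2 and 246 FPKM in steatosis, with overlap (log2 fold change -0.11, limma adjusted p = 0.398). Its paralogue NDUFA4L2, known to be induced by hypoxia, lay between 0.05 and 0.71 FPKM in all pools, with means of 0.418 ± 0.25 and 0.472 ± 0.196 (SD, n = 4). COX6B, at 103 ± 6.64 and 108 ± 3.44 FPKM, and COX5B, a zinc-binding subunit named after its values were seen, at 223 ± 22 and 221 ± 5.82 FPKM, were level. COX7C, also named after its values were seen, was not called (limma adjusted p = 0.491). It was at 140.1, 214.7, 153.6 and 124.8 FPKM initially and 188.6, 263.7, 165.9 and 128 FPKM in steatosis, with pool 2 highest and pool 4 lowest in both.

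Of the 8 tested subunits of complex IV under LOC symbols, 3 were called higher and 0 lower, against 26.7% and 2.28% of all genes. Beside COX7A2L these were COX4I1 and COX6B2. COX4I1, the common form of the largest nuclear-encoded subunit, was at 230.4, 227.9, 218 and 263.3 FPKM initially and 327.6, 286.4, 301.2 and 288.2 FPKM in steatosis. No pools overlapped (log2 fold change 0.36, SE 0.09, limma adjusted p = 0.0172), but after median-ratio scaling the change was 0.09 (limma adjusted p = 0.673). Its lung form COX4I2 stayed below 1 FPKM in all pools. COX6B2, the testis form of subunit 6B, was at 0, 0, 0.09 and 0.08 FPKM initially and 0.53, 0.69, 0.69 and 0.61 FPKM in steatosis. It was the only nuclear subunit gene past the study's limits (limma adjusted p = 0.000449), at levels where the size of the change depends on the pseudocount. Only its steatosis pools reached 0.3 FPKM, so it entered the fit through the group in which it was higher. COX7B (0.07), COX5A (-0.08) and COX8A (0.21) were not called, and COX7B2 was at 0 to 0.06 FPKM.

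In complex V none of 15 genes was called higher or lower, against 26.7% and 2.28% of all genes. The catalytic F1 part has 5 genes. Of these, ATP5A1 and ATP5B, the alpha and beta subunits that form the nucleotide sites, were at 124 ± 8.94 and 120 ± 7.54 FPKM and at 150 ± 4.17 and 137 ± 7.82 FPKM (SD, n = 4). Their log2 fold changes were -0.05 and -0.12, and both were lower after median-ratio scaling, by -0.33 and -0.40 (limma adjusted p = 0.0494 and 0.0279). ATP5C1 and ATP5D, in the central stalk, had changes of -0.05 and 0.09. ATP5E, also of the stalk and the most abundant gene of the complex, was at 260.9, 233.4, 291.5 and 263.9 FPKM initially and 299.2, 282.2, 292.3 and 258.4 FPKM in steatosis, with overlap (log2 fold change 0.11, limma adjusted p = 0.4). The 10 genes of the membrane part and peripheral stalk had a median log2 fold change of 0.09, between -0.27 and 0.23.

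Both ends of that range were genes of the c subunit, the rotor ring, whose 3 genes encode the same mature protein. ATP5G1 was at 59.62, 61.39, 48.01 and 77.4 FPKM initially and 50.51, 46.52, 49.42 and 55.11 FPKM in steatosis (log2 fold change -0.27, limma adjusted p = 0.159). ATP5G2 was at 152.9, 170.9, 162.1 and 181.6 FPKM initially and 209.6, 179.8, 195.1 and 197 FPKM in steatosis (log2 fold change 0.23, limma adjusted p = 0.0793). In both genes 1 or more pools overlapped, and neither was called. The change of ATP5G1 ran from -0.15 without initial pool 4 (limma adjusted p = 0.327) to -0.38 without initial pool 3 (limma adjusted p = 0.0428).

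As shares of the 3 genes together, ATP5G2 made up 49.7%, 49.1%, 52.2% and 47.4% in the initial pools and 57.2%, 54.8%, 54.7% and 55.3% in steatosis. All steatosis pools were above all initial pools (exact permutation p = 0.0286, adjusted 0.0571). ATP5G1 made up 18.2% ± 2.09 initially and 14.3% ± 0.779 in steatosis (SD, n = 4), with initial pool 3 and steatosis pool 4 both at 15.5% (exact permutation p = 0.0286, adjusted 0.0571). ATP5G3 overlapped, at 32.3% ± 0.982 and 30.2% ± 1.21 (exact permutation p = 0.0857). The shares of the 3 genes are parts of a common sum, so their p values are not separate results. These genes are alike in part of their sequence, and the split of shared reads between them is an estimate.

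The 2 members that are no subunits had changes of opposite sign, and neither was called. ATP5S, also called DMAC2L, was at 7.12, 9.99, 7.96 and 8.07 FPKM initially and 6.28, 6.51, 6.72 and 6.82 FPKM in steatosis, the only member with all steatosis pools below all initial pools (log2 fold change -0.32, limma adjusted p = 0.067). Without initial pool 1 it passed (-0.39, limma adjusted p = 0.0404). ATP5SL, now DMAC2 and a factor in complex I assembly, was at 14.1 ± 3.62 and 17.5 ± 1.23 FPKM (SD, n = 4, log2 fold change 0.34, limma adjusted p = 0.143). Its change ran from 0.21 without initial pool 4 (limma adjusted p = 0.3) to 0.50 without initial pool 2 (limma adjusted p = 0.026).

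Transcripts of mitochondrial DNA appear in the table as 9 new transcripts whose descriptions name a mitochondrial subunit. The libraries were made from poly-A RNA, how evenly it captures such transcripts was not tested, and transcripts described by the same subunit may share reads. Of the 8 tested, 2 were called lower and 0 higher, against 2.28% and 26.7% of all genes. BGI_novel_G000175, described as subunit 6 of complex I, was at 244.4, 355.7, 243.8 and 193.1 FPKM initially and 68.67, 87.26, 81.28 and 115 FPKM in steatosis. No pool overlapped (log2 fold change -1.55, SE 0.20, limma adjusted p = 0.000597), and the change was -1.82 after median-ratio scaling. This gene is encoded on the other strand of mitochondrial DNA than most, and the use of strand in counting is not given in the sources used here, so reads of antisense RNA cannot be told apart.

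BGI_novel_G000320, described as subunit 5 of complex I, fell from 3602 ± 299 to 2470 ± 525 FPKM (SD, n = 4, log2 fold change -0.57, limma adjusted p = 0.028). BGI_novel_G000321, described alike and the most abundant, overlapped at 4358 ± 1250 and 3098 ± 1173 FPKM (limma adjusted p = 0.206, blocked 0.0297). The largest and smallest changes were in transcripts that varied widely. BGI_novel_G000325, described as subunit 1 of complex I, was at 323, 2065, 3586 and 2788 FPKM initially and 7.08, 933.5, 2581 and 1532 FPKM in steatosis, lowest in pool 1 of both groups (limma adjusted p = 0.386). BGI_novel_G000303, described as subunit I of complex IV, was listed at 0 in initial pools 1 and 4 and in steatosis pool 1 and ran up to 100.3 FPKM elsewhere.

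Other genes that serve the chain were taken from lists of assembly factors, carriers, regulators and further mitochondrial genes. Outside the members, 116 of these genes and mitochondrial transcripts were in the table and 114 were tested, with 12 higher and 6 lower, against 26.7% and 2.28% of all genes, and a median log2 fold change of 0.05. After median-ratio scaling 1 was higher and 26 were lower, against 11.6% and 9.79% of all genes. The 1 higher was TMEM70, so the other higher calls given below did not hold on that scale.

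Of 50 assembly factors tested, 5 were higher and 1 lower, against 26.7% and 2.28% of all genes. None of the 15 for complex I was called, with NDUFAF2 at 0.37 and NDUFAF6 at -0.49 on the log2 scale as the extremes and FOXRED1, at 36.2 ± 2.94 and 37.6 ± 2.82 FPKM (SD, n = 4), the most abundant. The 3 for complex II (-0.17 to -0.25) and the 5 for complex III (0.00 to 0.37) had no calls, although UQCC3, the highest, passed in the blocked fit (limma adjusted p = 0.0428). For complex IV, PET100, COX19, CMC1 and LRPPRC were higher and COX20, which handles the mtDNA-encoded subunit 2, was lower (24.1 ± 3.03 to 17.7 ± 1.18 FPKM, SD, n = 4, log2 fold change -0.44, limma adjusted p = 0.0172). In the blocked fit COX19 and CMC1 did not pass (limma adjusted p = 0.0688 and 0.0683), nor without initial pool 1 (limma adjusted p = 0.096 and 0.0646). PET100 rose from 40.3 ± 1.94 to 59.3 ± 7.36 FPKM (log2 fold change 0.55, limma adjusted p = 0.00387), SCO2, a copper chaperone, had the largest change without a call (0.58, limma adjusted p = 0.0529), and COX17, the most abundant, was level (0.03).

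TMEM70, a membrane protein needed to build ATP synthase, had the largest rise of any assembly factor. It was at 7.33, 9.18, 8.17 and 10.79 FPKM initially and 15.44, 16.09, 14.47 and 15.42 FPKM in steatosis. The pools were well apart (log2 fold change 0.80, SE 0.12, limma adjusted p = 0.00157), and it was the assembly factor still higher after median-ratio scaling (0.53, limma adjusted p = 0.0334). The other 3 factors for complex V were not called, with ATPAF1 lowest at -0.19.

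Among 16 carriers and enzymes of ubiquinone synthesis, 2 were higher and none lower, against 26.7% and 2.28% of all genes. The higher ones were COQ8B (2.06 ± 0.324 to 3.12 ± 0.196 FPKM, limma adjusted p = 0.0116) and COQ4 (16.2 ± 0.744 to 21.9 ± 1.56 FPKM, limma adjusted p = 0.0066). CYCS, cytochrome c, was at 43.6, 32.4, 21.42 and 29.97 FPKM initially and 23.53, 22.38, 21.82 and 18.87 FPKM in steatosis (log2 fold change -0.51, limma adjusted p = 0.0642, blocked 0.0409). Its highest value was in initial pool 1, and without that library the change was -0.35 (limma adjusted p = 0.118). NDUFAB1, the acyl carrier protein of complex I, had no overlap, at 106 ± 7.37 and 89.1 ± 7.13 FPKM, and a limma adjusted p of 0.0675.

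Of 12 regulators tested, 1 was higher and 2 were lower, against 26.7% and 2.28% of all genes. PPARGC1A, a coactivator of genes for mitochondrial biogenesis, was at 6.96, 2.85, 2.9 and 2.11 FPKM initially and 1.44, 1.6, 2.09 and 1.5 FPKM in steatosis (log2 fold change -0.98, SE 0.32, limma adjusted p = 0.0422). Initial pool 1 was far above the rest, and without it the change was -0.63 (limma adjusted p = 0.034). TFB2M, a factor of mitochondrial transcription, was lower (-0.62, limma adjusted p = 0.0283), and its change was -0.56 without that pool (limma adjusted p = 0.0625). NRF1, which acts on many subunit genes, was higher (2.15 ± 0.27 to 3.09 ± 0.443 FPKM, limma adjusted p = 0.0287), PPARGC1B had a change of 0.60 without a call, and ESRRA, the most abundant, of 0.20. After median-ratio scaling NRF1 was not called (0.24, limma adjusted p = 0.183). PPARGC1A and TFB2M were still lower on that scale (-1.24 and -0.88, limma adjusted p = 0.0216 and 0.00865).

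Of 13 further enzymes of the citric acid cycle, 2 were higher and none was lower, against 26.7% and 2.28% of all genes. CS, the citrate synthase, rose from 20.5 ± 1.88 to 29.6 ± 1.59 FPKM (SD, n = 4, log2 fold change 0.53, limma adjusted p = 0.0032). SUCLA2 was lowest (-0.30) and MDH2, the most abundant, had a change of -0.12, neither called. Of 16 genes of membrane structure and import, 2 were higher and 1 was lower, against 26.7% and 2.28% of all genes. The higher ones were MFN2 (0.48) and IMMT (0.33, blocked limma adjusted p = 0.0534). HSPD1, the matrix chaperonin, was lower (117 ± 16.1 to 80.4 ± 12.2 FPKM, log2 fold change -0.55, limma adjusted p = 0.0144). Its partner HSPE1, the most abundant, was at 211 ± 28.1 and 197 ± 3.37 FPKM without a call.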

How the data were processed

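Hepatic RNA was measured by RNAseq in 4 initial and 4 steatosis pools of 2 pigs. The authors filtered reads, mapped them with HISAT2 2.0.4 to Sus scrofa 11.1 and estimated expression with Bowtie2 2.2.5 and RSEM 1.2.12, and the FPKM values were deposited with no scaling between libraries stated. Their own comparisons of pool with pool, in 4 tables of fold changes and FDR, were not used apart from a column of transcript lengths. All 13175 genes that reached 0.3 FPKM in 4 or more libraries entered 1 fit of log2(FPKM + 0.1) on the group in limma 3.58.1 (R 4.3.3), using its trended prior, and p values were adjusted by Benjamini-Hochberg over them. The added 0.1 understates fold changes of low genes. Calls used an adjusted p under 0.05. Paralogue ratios were compared by two-sided exact permutation tests with scipy 1.17.1.

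Members and gene lists were chosen with earlier results of these data known. Named were, in each complex, the members with the highest and lowest change and the highest level, those past the study's limits, under the expression filter or in paralogue groups, all called members, and at most 3 genes of each other list. Core subunits, the small complexes II and III and F1 were also given by role, and other called genes after values were seen. Genes of the lists not found by symbol or description were not analysed here, and the values of 2 genes that entered the counts are not reported here.

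The study does not state that pool numbers pair the libraries, and the main fit and the permutation tests did not use them. Only the block treated pools of the same number as pairs. Both groups are the same animals, and deviations from the group means correlated at 0.163, 0.35, 0.317 and 0.247 for pools 1 to 4. The number of reads behind a value was not analysed here. From low values of genes of 400 to 1500 bp, which move in steps of 1 read, the relative depth lay roughly between 92.3% and 100%. The error given is the SD over pools. Alternatives were other scalings, pseudocount, filters, the block, no trend and each library left out.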

Additional observations from a re-analysis of the deposited data

Results flagged for a closer look

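A single value stood far from the other pools of its group. COX8H in initial pool 1 was at 21.21 FPKM, with the other 3 initial pools listed at 0, in the library with the muscle markers. The gap was compared with the range in 148 groups of 4 pools (69 members and the sums of 5 complexes, in both conditions), and 1 was marked, where chance alone marks about 1 in 20.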

How the results depend on the processing

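The direction changed with the scaling. The counts of higher and lower members, 6 and 0, became 0 and 13 with median-ratio scaling and 0 and 10 with a common upper quartile (12.7% and 7.79% of all genes), because these scalings moved the median of all tested genes from 0.25 to -0.01 and 0.03. The median log2 fold change of the members became -0.18 and -0.15, and for complexes I to V it became -0.17, -0.14, -0.16, -0.20 and -0.20 with median-ratio scaling and -0.14, -0.10, -0.13, -0.16 and -0.16 with the upper quartile. The log2 ratio of the summed FPKM of all members, 0.07, became -0.21 and -0.17, and the counts of other mitochondrial genes, 12 and 6, became 1 and 26 and 3 and 22. NDUFA10 turned to -0.02 with median-ratio scaling. The members' median relative to all genes was -0.16, and it was -0.11 with a pseudocount of 1 and -0.10 without a filter.

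In the fit with the replicate block (pool number), 5 members were higher and 1 was lower, against 25.7% and 2.6% of all genes. COX7A1 passed and NDUFA10 failed, and the block changed no other call of a named member. Of the marker genes, SOX9 alone changed its call (limma adjusted p = 0.024 with the block). With each library left out, 3 to 7 members were higher and 0 to 2 lower, against 17.6% to 25.7% and 1.31% to 3% of all genes. The relative median ran from -0.21 to -0.08. Of the other mitochondrial genes, 6 to 13 were higher and 2 to 6 lower, with 6 or 7 higher without any 1 steatosis pool. In these genes 3 were lower without initial pool 2 or steatosis pool 2, and 2 without steatosis pool 4. Adding the subunits under LOC symbols, chosen after seeing the data, gave 1 gene past the study's limits, COX6B2, which reached the filter in its steatosis pools alone. The cause of the moves other than those with scaling was not tested. Common sum, a stricter filter and no trend kept both counts of members within 1.5 times. The read depth that limits low genes such as NDUFA4L2 was not analysed here.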
